A study of Danio rerio with 6 samples.

Results

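Snail, twist and zeb factors are transcription factors best known for driving epithelial-to-mesenchymal transition, the change by which cells of a sheet lose their junctions and become migratory. Snail proteins (*snai* genes) are zinc-finger repressors, zeb proteins (*zeb* genes) carry zinc-finger clusters around a homeodomain, and twist proteins (*twist* genes) are basic helix-loop-helix factors that act as dimers with E proteins. All bind E-box motifs. In the vertebrate heart they are known from the endocardial cushions, which give rise to the valves, and from the epicardium, the outer layer that yields fibroblasts and mural cells.

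The expression of 10 such genes was read from RNA-Seq of zebrafish heart ventricles: *snai1a*, *snai1b*, *snai2*, *snai3*, *twist1a*, *twist1b*, *twist2*, *zeb1b*, *zeb2a* and *zeb2b*. They were chosen by symbol, and all 10 matched 1 gene each among the 32520 genes of the count table. For *zeb1b* and *zeb2b* the name table gives only the human-style symbols ZEB1 and ZEB2, and the copies *zeb1a* and *zeb2a* have IDs of their own. Uninjured ventricles of old fish (4 years) were compared with those of young fish (7 months). Each age had 3 libraries, labelled as replicates 1, 3 and 5 in the old and 1, 2 and 5 in the young. The study's methods describe wild-type fish bred from the AB and TU strains, and they name no allele or treatment that sets the groups apart. Genotypes of single fish are not given, and whether the ages differ in genetic background was not tested. The samples of each age were picked from a larger set for the integrity of their RNA, and the sex of the fish is not given in the sources used here. A whole ventricle mixes cell types, so fewer cells of a type and less RNA per cell cannot be told apart.

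Between 17742389 and 22547518 counts were assigned to genes in a library. Levels are given as CPM, the counts scaled to a common library size with edgeR's TMM factors. A library with 0 counts may still have held up to 3, a floor of 0.124 to 0.161 CPM, which covers counting error only. Transcript lengths were not used here, so levels were compared between ages and not between genes. The age difference of each gene is the log2 fold change, old over young, with its standard error (SE) from edgeR's quasi-likelihood fit over all 24835 genes with at least 1 read, with Benjamini-Hochberg adjustment over all of them and a threshold of 0.05. The gene group was picked with results of this comparison known, so the values of its members are a description and not independent evidence. All 10 members had at least 1 read and none was lost to this filter.

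Of the 10 members, 1 was past the threshold, against 0.858% of all tested genes, and this was *snai3*, which was higher in old ventricles. In 3 members, *snai3*, *snai2* and *snai1b*, all old libraries were above all young ones, as in 10.4% of all tested genes. In 0 members they were all below, as in 9.66% of all tested genes. The groups overlapped in the other 7, which comprise *snai1a* and all twist and zeb members. Fitted values were positive for 6 members and negative for 4. The median log2 fold change of the members was 0.32, against 0.02 over all tested genes. With *snai3* at its lower bound and *twist2*, which was at the floor in both ages, left out, the median of the 9 remaining members was 0.11.

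**Figure D1:**
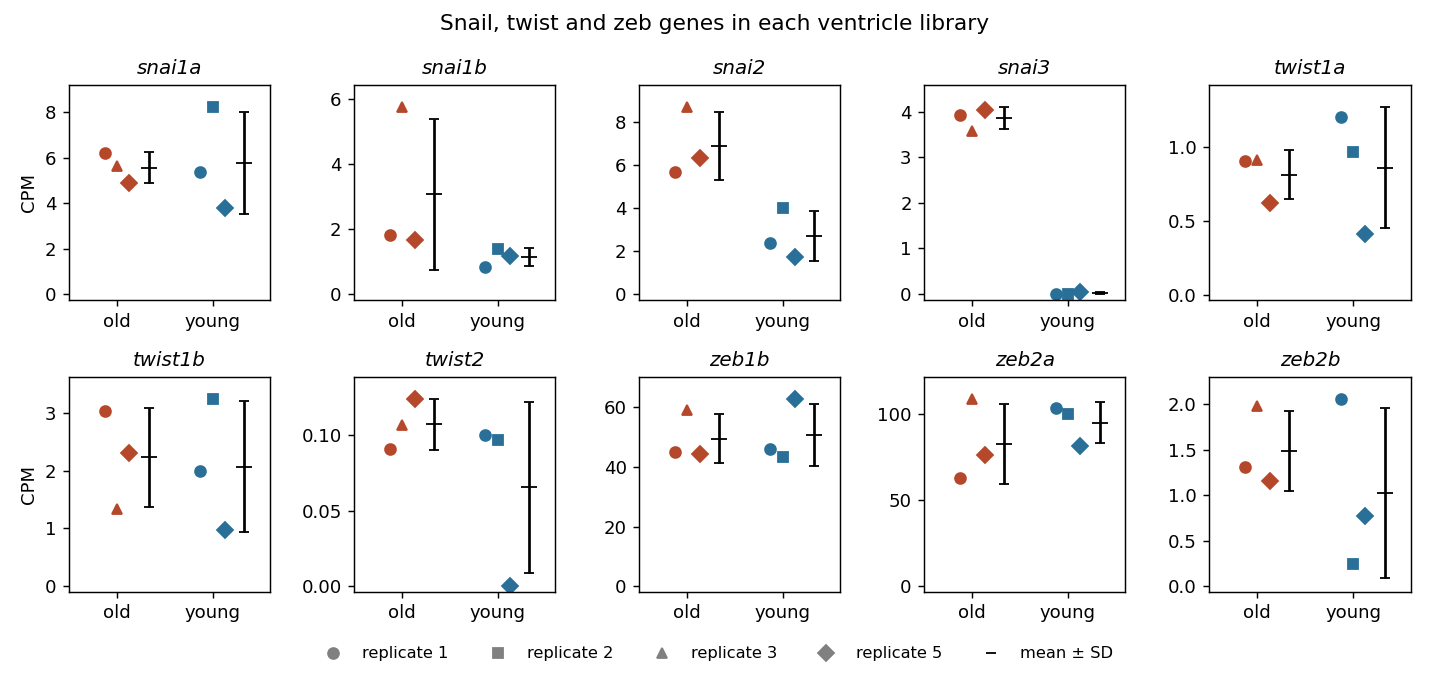
CPM of each of the 10 genes in every library (y axis, linear), old left and young right. Symbols mark the replicate number, and bars give the mean ± SD of 3 libraries. *snai3* lies between 3.59 and 4.05 CPM in old libraries and at or near 0 in young ones, while the ages overlap for the twist and zeb genes.

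All old libraries were above all young ones in 3 of the 4 snail genes, beside 10.4% of all tested genes, and the ages overlapped in *snai1a*. Of these 3 only *snai3* was past the threshold. *snai3* (ENSDARG00000031243) encodes the snail paralog that overlaps in function with Snai2 in blood cell development of the mouse. It had 87, 67 and 98 counts in old replicates 1, 3 and 5, against 0, 0 and 1 counts in young replicates 1, 2 and 5. The old libraries were close to each other, with 3.94, 3.59 and 4.05 CPM, and the young ones were all at the floor. The mean of 3.86 ± 0.242 CPM in old ventricles (SD, n = 3) was therefore at least 25.8-fold higher than the mean floor of the young libraries (0.149 CPM). In edgeR's quasi-likelihood fit *snai3* had an adjusted p of 0.0030 and stood in place 9 of all genes ordered by p. Its adjusted p was under 0.05 in all 14 other settings, between 1.2e-07 in DESeq2's Wald test and 0.041 in edgeR's test without young replicate 2.

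Such a pattern was uncommon in the table. In 74 of the tested genes (0.298%) all young libraries were at the floor while the old mean was at least 1 CPM, and *snai3* had place 9 among these by its old mean. In the reverse direction 20 genes (0.0805%) were at the floor in all old libraries with a young mean of at least 1 CPM, among them *grhl2b*, described with the epithelial genes. The gene most like *snai3* over the 6 libraries, named after its values were seen, was *ptprq*, a receptor-type tyrosine phosphatase gene, by the Euclidean distance of centred log2(CPM + 0.5) values (0.58, against a median of 3.88 over 12920 genes). It had 3.13, 4.66 and 2.93 CPM in old libraries and 0 CPM in each of the young ones.

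The genes next to *snai3* were read as well. Gene order was taken from the RefSeq assembly GRCz12tu, since no annotation of the build used by the authors was at hand, and 7 of the 10 nearest protein-coding genes could be matched by symbol. The 3 directly on one side of *snai3* were not among them. None of the 7 was past the threshold in edgeR's test, DESeq2 or limma-voom. In edgeR's test 0 had an unadjusted p under 0.05, beside 15.1% of all tested genes. *cdh31*, a cadherin gene directly beside *snai3* on the other side, had 1, 0 and 1 counts in old libraries and none in young ones, so it was at the floor in both ages. *piezo1*, which encodes a mechanosensitive channel, had 222, 124 and 194 counts in old libraries, against 219, 202 and 181 in young ones, with a log2 fold change of -0.28 (SE 0.23). *cdkn2aip* was the 1 matched neighbour whose ages did not overlap, beside 20% of all tested genes. It had 107, 101 and 108 counts in old libraries against 122, 133 and 133 in young ones, a log2 fold change of -0.39 in CPM (SE 0.23).

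*snai2* (ENSDARG00000040046), the ortholog of the gene known as Slug, had 5.66, 8.67 and 6.32 CPM in old replicates 1, 3 and 5. In young replicates 1, 2 and 5 it had 2.40, 4.01 and 1.74 CPM, so the lowest old library was above the highest young one. The log2 fold change was 1.34 (SE 0.36), with an adjusted p of 0.122 in edgeR's quasi-likelihood fit and an unadjusted p of 0.0041. An unadjusted p under 0.05 was found for 3 members (*snai3*, *snai2* and *snai1b*) and for 15.1% of all tested genes. The 95% interval of the log2 fold change ran from 0.54 to 2.14. DESeq2's Wald test, the tool of the study's methods, called the gene with an adjusted p of 0.017, beside 4.39% of all genes called higher. In the 13 other settings it was not past the threshold, and its log2 fold change lay between 1.1 and 1.73 over the 14.

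*snai1b* (ENSDARG00000046019) is 1 of the 2 zebrafish copies of the gene for Snail, the founding member of the family in vertebrates. It had 1.81, 5.73 and 1.65 CPM in old replicates 1, 3 and 5, against 0.851, 1.40 and 1.17 CPM in young replicates 1, 2 and 5. Old replicate 3 was far above all others, and old replicates 1 and 5 were just above the highest young library. The log2 fold change was 1.41 (SE 0.53, adjusted p = 0.249 in edgeR's quasi-likelihood fit), and it was 0.60 (SE 0.44, adjusted p = 0.662) without old replicate 3. With the replicate number as a block the log2 fold change was 0.78 (adjusted p = 0.818). In that fit the age difference rests on the libraries numbered 1 and 5 only.

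*snai1a* (ENSDARG00000056995), the other copy, had 6.21, 5.62 and 4.88 CPM in old replicates 1, 3 and 5 and 5.36, 8.21 and 3.78 CPM in young replicates 1, 2 and 5. The old libraries lay within the range of the young ones. Its log2 fold change was -0.06 (SE 0.31, adjusted p = 0.954 in edgeR's quasi-likelihood fit), with a 95% interval from -0.76 to 0.65. The sign is not settled, since it turned with scaling by library size alone and in 4 other settings.

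Among the 4 snail genes, the shares of the family's reads lay apart between the 2 ages for *snai3*, *snai1a* and *snai2*. The summed level of the 4 genes was 16.9 to 23.6 CPM in old and 6.74 to 13.6 CPM in young libraries. *snai3* took 20.5% ± 4.67 of the reads on the 4 genes in old and 0.253% ± 0.437 in young ventricles (SD, n = 3 each). The share of *snai1a* was 29.3% ± 5.72 in old and 59.5% ± 3.15 in young ventricles, although its own level overlapped between the ages. *snai2* took 35.4% ± 2.87 in old and 27.7% ± 1.85 in young ventricles. For *snai1b* the shares were 14.8% ± 8.22 in old and 12.5% ± 4.24 in young ventricles and overlapped. Shares of reads depend on the length of the transcripts and give no order of levels between genes.

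**Figure D2:**
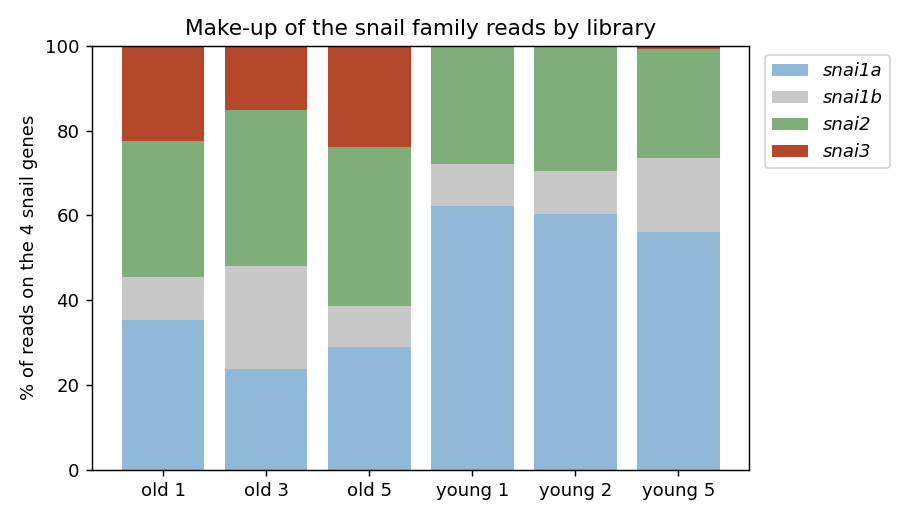
Share of the reads on the 4 snail genes that fell on each gene (y axis, %), by library, old left and young right. *snai3* takes 15.2 to 24.0% in old and 0 to 0.758% in young libraries, and *snai1a* takes 23.8 to 35.2% in old and 56.1 to 62.2% in young libraries.

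The twist genes together held 27 to 89 counts in a library, and the ages overlapped in each of them. *twist1b* (ENSDARG00000076010), 1 of the copies of the gene that patterns craniofacial and cushion mesenchyme in mammals, had 3.04, 1.34 and 2.31 CPM in old and 2.00, 3.24 and 0.970 CPM in young libraries. Both ages spread over about the same range, and the log2 fold change was 0.11 (SE 0.49, adjusted p = 0.937 in edgeR's quasi-likelihood fit), or 0.91 (adjusted p = 0.727) with the replicate block. *twist1a* (ENSDARG00000030402) had 20, 17 and 15 counts in old and 24, 20 and 8 counts in young libraries, with a log2 fold change of -0.08 (SE 0.52). The 95% intervals ran from -0.995 to 1.21 for *twist1b* and from -1.25 to 1.08 for *twist1a*, so changes within these ranges are compatible with these libraries. The smallest change that would be past the threshold was not determined. *twist2* (ENSDARG00000078266), a marker of dermal mesenchyme, had 2, 2 and 3 counts in old and 2, 2 and 0 counts in young libraries. Both groups were at the floor, and no fold is given.

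*zeb2a* and *zeb1b* held more reads than any other member, and the ages overlapped in each of the 3 zeb genes. *zeb2a* (ENSDARG00000062338), 1 of the copies of ZEB2, which in mammals acts in neural crest, myeloid and lymphoid cells, had 63.2, 109 and 76.1 CPM in old replicates 1, 3 and 5. In young replicates 1, 2 and 5 it had 104, 99.9 and 81.6 CPM. Old replicate 3 was the highest of all libraries and old replicate 1 the lowest, so the young range lay inside the old one. The log2 fold change was -0.20 (SE 0.22, adjusted p = 0.647 in edgeR's quasi-likelihood fit), with a 95% interval from -0.70 to 0.30.

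*zeb1b* (ENSDARG00000013207), a copy of ZEB1, the repressor of E-cadherin in mammalian epithelia, had 45.1, 59.0 and 44.3 CPM in old and 46.0, 43.5 and 62.8 CPM in young libraries. In each age 1 library was high, old replicate 3 and young replicate 5, and the other 4 lay between 43.5 and 46.0 CPM. Its log2 fold change of -0.04 (SE 0.21) had a 95% interval from -0.50 to 0.43, the narrowest of the 10, and its sign turned with scaling by library size alone and with 3 of the libraries left out. *zeb2b* (ENSDARG00000078416) had 29, 37 and 28 counts in old and 41, 5 and 15 counts in young libraries. The young libraries spread over the whole range of the old ones and beyond, and the log2 fold change was 0.54 (SE 0.66, adjusted p = 0.694). It was 1.55 without young replicate 1 (adjusted p = 0.366) and 0.069 without young replicate 2 (adjusted p = 0.964).

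**Figure D3:**
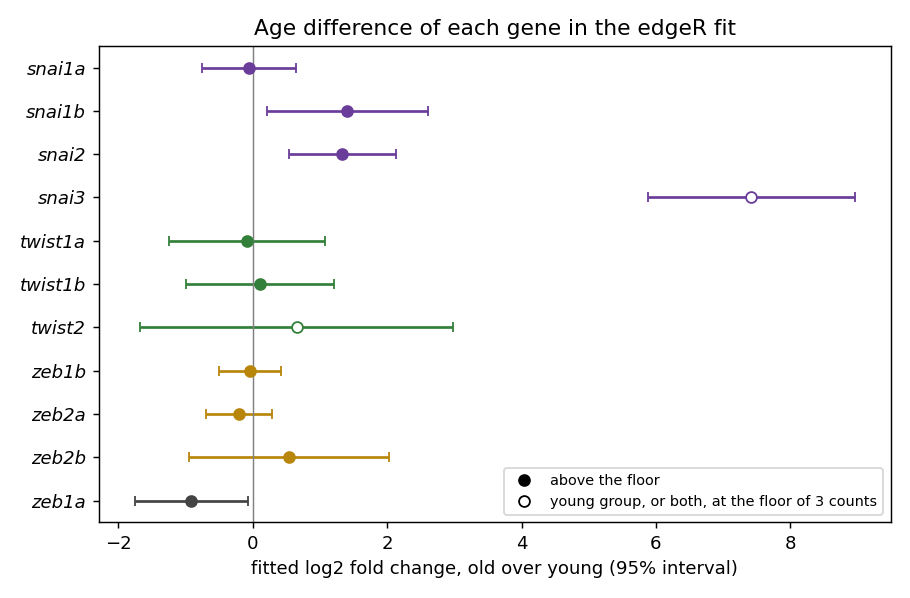
Fitted log2 fold change of each member and of *zeb1a*, old over young (x axis), with its 95% interval. Filled points are genes above the floor, and open points are *snai3*, whose fitted value depends on the prior count because all young libraries are at the floor, and *twist2*, at the floor in both ages. The intervals of the twist and zeb members and of *snai1a* include 0.

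Young replicate 5 was the lowest young library for 6 members (*snai1a*, *snai2*, *twist1a*, *twist1b*, *twist2* and *zeb2a*), of which *twist2* was at the floor. For *zeb1b* it was the highest of all libraries (62.8 CPM). The share of all tested genes with their lowest young value in this library was not determined. Among the epicardial and fibroblast markers, young replicate 5 was the lowest of all 6 libraries in *tcf21*, *tbx18*, *wt1a*, *wt1b* and *pdgfra*. It was not the lowest in *aldh1a2*, *dcn* and *col1a2*. The sum of these markers was lowest in old replicate 5 (266 CPM), with 318 CPM in young replicate 5. *tcf21*, a bHLH relative of the twist genes that marks epicardium and fibroblasts, had 154, 100 and 170 counts in old replicates 1, 3 and 5 and 207, 207 and 77 counts in young replicates 1, 2 and 5. *tbx18*, an epicardial T-box factor, had 4.12, 6.32 and 5.66 CPM in old and 4.16, 3.58 and 0.766 CPM in young libraries.

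By the same distance as for *snai3*, the genes of most like pattern were *btbd8* for *zeb2a* (0.24, against a median of 0.98 over 12920 genes), TMEM106C for *zeb1b* (0.08, median 0.89) and ARCN1 for *snai1a* (0.20, median 1.06). These are likenesses over 6 libraries only.

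Markers of the cell types in the ventricle were summed to place these values. The cardiomyocyte markers that could be matched (4 of 7) summed to between 39109 and 48235 CPM in old and between 39085 and 56230 CPM in young libraries. The 8 leukocyte markers summed to 170, 55.7 and 119 CPM in old replicates 1, 3 and 5 and to 46.8, 35.6 and 27.3 CPM in young replicates 1, 2 and 5, and none was at 0 in a whole group. All 8 had a fitted difference above 0, old over young, and the median of the 8 was 1.54 on the log2 scale. In edgeR's fit 1 of them, *lcp1*, was past the threshold, where 0.519% of all tested genes were called higher. DESeq2's Wald test called 6 of them higher, beside 4.39% of all genes with an adjusted p. *snai3* had 3.94 CPM in the old library with the highest leukocyte sum and 3.59 CPM in the one with the lowest. *snai2* and *snai1b* were highest in old replicate 3, the old library with the lowest leukocyte sum.

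The other marker sums overlapped between the ages, except that of the epithelial markers. The 8 matched epicardial and fibroblast markers summed to 266 to 391 CPM in old and 318 to 470 CPM in young libraries. The 6 matched endothelial and endocardial markers summed to 754 to 892 CPM in old and 800 to 1252 CPM in young libraries. The 6 epithelial markers summed to 86.3 to 109 CPM in old and 44.9 to 85.8 CPM in young libraries, nearly all of it from *krt4*, and *epcam*, which defines epithelia, had at most 2 counts in any library. *cldne* had 0 counts in every old library and 7, 1 and 2 counts in young replicates 1, 2 and 5, so it was near the floor in both ages. The 5 markers of neural crest and glia summed to 1.13 to 8.30 CPM in old and 1.30 to 2.14 CPM in young libraries, with *sox10* at 0 or 1 count throughout. The 4 markers of smooth muscle and bulbus summed to 136 to 316 CPM in old and 148 to 207 CPM in young libraries. Of these, *elnb*, a bulbus elastin gene, had 40, 25 and 313 counts in old against 9, 0 and 22 in young libraries, so old replicate 5 stood apart. The 2 atrial markers summed to 2923 to 3295 CPM in old and 2438 to 4374 CPM in young libraries, most of it from *nppa*. *myh6*, the atrial myosin heavy chain, had 30.2, 8.83 and 30.9 CPM in old and 301, 8.89 and 6.13 CPM in young libraries, so young replicate 1 stood apart. The part of any of these cell types in the values of the snail genes was not tested.

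**Figure D4:**
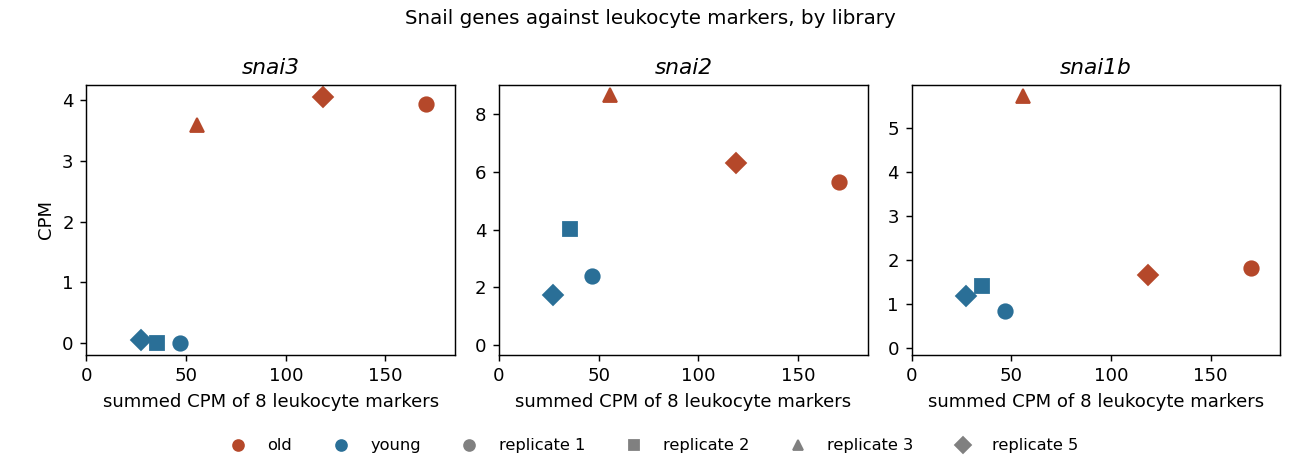
CPM of *snai3*, *snai2* and *snai1b* (y axes) against the summed CPM of 8 leukocyte markers (x axis), 1 point per library. Old libraries spread from 55.7 to 170 on the x axis while *snai3* stays between 3.59 and 4.05, and old replicate 3 is highest for *snai2* and *snai1b* at the lowest leukocyte sum of the old libraries.

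Genes that act with these factors were taken from 7 lists, written with earlier results of these data known, and 144 of their genes were tested. In edgeR's quasi-likelihood fit 1 was past the threshold and higher in old ventricles, *fn1a*, and 1 lower, *grhl2b*, where 0.519% of all tested genes were higher and 0.338% lower. DESeq2's Wald test, which gave 117 of the 144 an adjusted p, called 8 higher and 3 lower, where it called 4.39% and 2.88% of all genes with an adjusted p. limma-voom called 1 lower, *grhl2b*, and 0.161% of all genes.

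The 9 partners and inhibitors of bHLH factors comprise the E proteins that pair with twist and the Id proteins that sequester E proteins. None was past the threshold, and 2 had an unadjusted p under 0.05 in edgeR's fit, beside 15.1% of all tested genes. The smallest p belonged to *id3*, with 308, 320 and 429 counts in old and 122, 203 and 157 counts in young libraries and a log2 fold change of 1.03 (SE 0.23, adjusted p = 0.084 in edgeR's quasi-likelihood fit). It was the 1 gene of the list that DESeq2's Wald test called, beside 4.39% of all genes called higher. *id1* had a log2 fold change of 0.74 (SE 0.34), with overlapping ages. The E protein genes differed less. *tcf3b* had 37.3 ± 2.41 CPM in old and 36.3 ± 1.09 CPM in young ventricles (SD, n = 3 each), *tcf12* 60.9 ± 15.6 CPM in old and 55.6 ± 14.6 CPM in young ventricles. *tcf3a* and *tcf4* had log2 fold changes of 0.19 (SE 0.43) and 0.35 (SE 0.81).

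Among the relatives of the members, 10 of 13 were tested and 5 of these were at or under the floor in both ages, *twist3* among them. None was past the threshold in edgeR's fit or DESeq2. An unadjusted p under 0.05 in edgeR's fit was found for 2, beside 15.1% of all tested genes. *zeb1a* (ENSDARG00000016788), the other copy of ZEB1, had 32, 23 and 24 counts in old and 59, 40 and 40 counts in young libraries, so the ages did not overlap. Its log2 fold change in CPM was -0.91 (SE 0.37, adjusted p = 0.286 in edgeR's quasi-likelihood fit), beside -0.04 for *zeb1b*. Whether the copies differ in their response was not tested.

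No corepressor or stability factor was past the threshold in edgeR's fit or DESeq2 among 22 tested, with a median log2 fold change of -0.13. Beside 15.1% of all tested genes, 1 had an unadjusted p under 0.05 in edgeR's fit. This was *pak1*, a kinase known to phosphorylate SNAI1 in human cells, with 18.7 ± 4.56 CPM in old and 33.3 ± 8.38 CPM in young ventricles (SD, n = 3 each; adjusted p = 0.167 in edgeR's quasi-likelihood fit). *ctbp2a*, a copy of the corepressor that zeb proteins recruit, had 5.98 ± 2.76 CPM in old and 4.74 ± 0.143 CPM in young ventricles (SD, n = 3 each). Of the 25 upstream signals, none was past the threshold, and 1 was higher and 7 lower at an unadjusted p under 0.05, where 8.64% and 6.50% of all tested genes were. DESeq2's Wald test called 2 of them lower, *notch1b* and the TGF-beta ligand gene *tgfb2*, beside 2.88% of all genes with an adjusted p. *notch1b*, an endocardial Notch receptor, had the smallest p of these, with 64.1 ± 6.75 CPM in old and 111 ± 15.8 CPM in young ventricles (SD, n = 3 each; adjusted p = 0.080 in the same fit). *tgfb1a*, a TGF-beta ligand gene, had 17.7, 39.7 and 17.4 CPM in old and 14.5, 15.5 and 16.3 CPM in young libraries. Its highest library was old replicate 3, as for *snai1b* and *snai2*.

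Genes of the epithelial state, which snail and zeb proteins are known to repress, went in both directions. Of 35 tested, 1 was past the threshold, while 5 were higher and 4 lower at an unadjusted p under 0.05, beside the same shares of all tested genes (8.64% and 6.50%). *grhl2b* (ENSDARG00000061974), a copy of the epithelial factor that opposes ZEB1 in human cells, had 0, 1 and 0 counts in old and 177, 180 and 148 counts in young libraries. This puts it at least 59.7-fold lower in old than in young ventricles (adjusted p = 0.00082 in edgeR's quasi-likelihood fit), the reverse of the pattern of *snai3*. *cdh1*, the gene of E-cadherin, had 27, 15 and 8 counts in old and 7, 3 and 10 counts in young libraries, and the ages overlapped. *epcam* was at the floor in both ages.

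Of 31 mesenchymal and matrix genes, 1 was past the threshold, and 11 were higher and 2 lower at an unadjusted p under 0.05 (8.64% and 6.50% of all tested genes). DESeq2's Wald test called 6 of them, *fn1a*, *fn1b*, *cdh11*, *mmp14b*, *pdgfrb* and *tagln*, all higher, beside 4.39% of all genes. *fn1a*, a fibronectin gene, had 524, 730 and 397 counts in old and 169, 145 and 71 counts in young libraries. Its mean was 26.4 ± 11.6 CPM in old and 6.36 ± 2.48 CPM in young ventricles (SD, n = 3 each), with a log2 fold change of 2.05 (SE 0.38, adjusted p = 0.049). It kept the call in 5 of the 14 other settings, with adjusted p-values between 0.00014 in DESeq2 and 0.218 in edgeR without young replicate 2. The call was lost without old replicate 3 or any of the young libraries, with either stricter filter, with limma-voom, with bias-adjusted deviances and with the replicate block. *fn1b* had 120 ± 37.9 CPM in old and 58.4 ± 3.79 CPM in young ventricles (SD, n = 3 each; adjusted p = 0.075 in edgeR's quasi-likelihood fit). *vim*, which encodes the intermediate filament vimentin, had a log2 fold change of 0.68 (SE 0.21, adjusted p = 0.170), without overlap between the ages. *cdh2*, the gene of N-cadherin, which cardiomyocytes also express, had 391 ± 31.4 CPM in old and 461 ± 68.4 CPM in young ventricles (SD, n = 3 each; adjusted p = 0.539), and the ages overlapped.

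None of the 12 endocardial cushion and valve genes was past the threshold. At an unadjusted p under 0.05 in edgeR's fit 3 were higher, beside 8.64% of all tested genes. Besides *vcana* these were *has2* and *sox9a*, and all 3 were far highest in old replicate 3. In old replicates 1, 3 and 5 *has2* had 27, 434 and 31 counts and *sox9a* 5, 94 and 12. In young replicates 1, 2 and 5 *has2* had 8, 7 and 22 counts and *sox9a* 5, 5 and 4. The smallest p was that of *vcana*, a gene of the matrix proteoglycan versican, with 27, 207 and 51 counts in old and 12, 10 and 6 counts in young libraries (log2 fold change of 3.35, SE 0.81, adjusted p = 0.098 in edgeR's quasi-likelihood fit). DESeq2's Wald test called it as the 1 gene of this list, beside 4.39% of all genes called higher. Most of its reads came from old replicate 3, the library in which *snai1b*, *snai2*, *zeb2a* and *tgfb1a* were also highest. In the same library *snai3* (3.59 CPM) and *twist1b* (1.34 CPM) had their lowest old values. The share of all tested genes highest there was not determined.

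**Figure D5:**
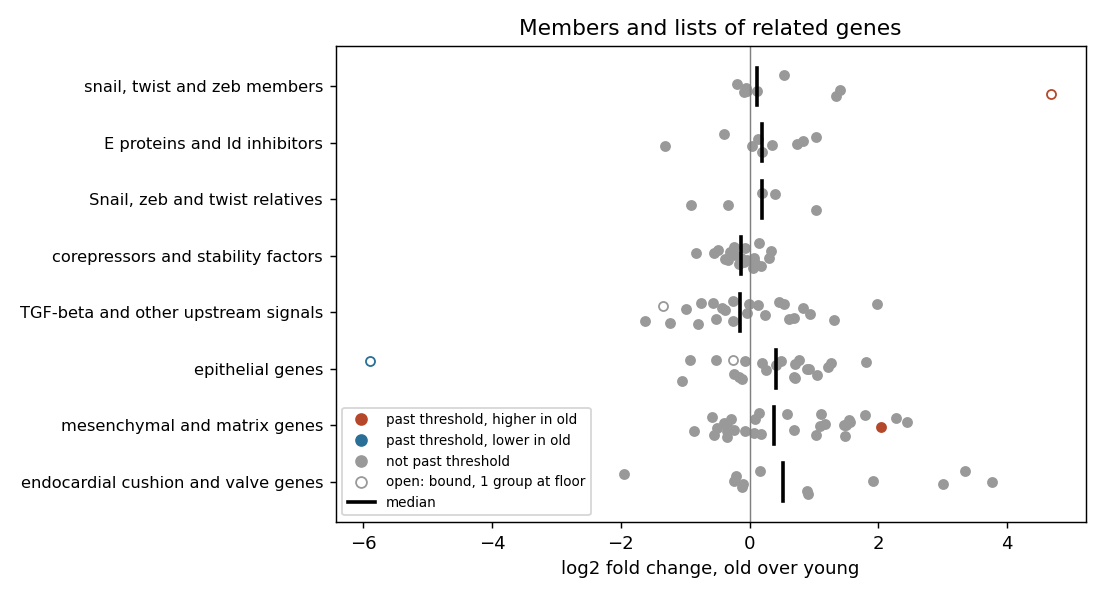
Log2 fold change, old over young (x axis), of the members and of each gene in the 7 lists, with the median as a black line. Coloured points are past the threshold (*snai3* and *fn1a* higher, *grhl2b* lower in old), open points are bounds for genes with 1 age at the floor, and genes at the floor in both ages are left out.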

How the data were processed

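RNA-Seq counts of 3 old and 3 young zebrafish ventricles were analysed, with groups and replicate numbers from the sample labels. The authors aligned reads of poly(A)-selected stranded libraries to GRCz11 (Ensembl annotation) with STAR 2.5.4b and counted uniquely mapped reads per gene with featureCounts 1.6.3, by strand. Reads on several positions or genes were discarded, which leaves near-identical copies uncertain. Raw counts were deposited, without normalization.

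All genes with any read (at least 1) were TMM-normalized and tested with edgeR 4.0.16 (R 4.3.3; glmQLFit defaults) with age as the only factor. Standard errors are the log2 fold change over the root of F. The test was tested on simulated data. The genes changed there were drawn from those of higher mean counts, so genes of low counts such as *twist1a* and *twist2* were not covered. None was made absent at 1 age, so the pattern of *snai3* was not covered either. Alternatives were RLE factors, library size alone, 2 filters, DESeq2 1.42.0, limma-voom 3.58.1, bias-adjusted deviances, the replicate block and each library left out. With the replicate block, old replicate 3 and young replicate 2 do not inform the age difference, since their numbers occur at 1 age only. Figures used Python 3.11.15 and matplotlib 3.10.9.

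Symbols came from a name table and, where it gives human-style symbols, from those of the study's supplement or the copy left over; 149 of 156 listed genes were matched. Members and lists were chosen with earlier results of these data known. All members were named, as were genes past the threshold or of smallest p in each list and a fixed set of pathway genes. *ptprq*, the neighbours of *snai3*, *has2*, *sox9a* and listed genes named only as DESeq2 calls or markers were chosen after their values were seen.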

Additional observations from a re-analysis of the deposited data

How the results depend on the processing

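*snai3* kept its direction and its call in all 14 other settings, and *snai2* and *snai1b* kept their direction. With DESeq2's Wald test 2 members were called higher, *snai3* and *snai2*, beside 4.39% of all genes with an adjusted p. Every other setting called 1 member, and the main fit called 0.519% of all tested genes higher. The number of all genes past the threshold, 213 (129 higher, 84 lower), was 65 with at least 10 reads summed, 111 with filterByExpr, 1239 with DESeq2, 94 with limma-voom, 111 with bias-adjusted deviances and 126 with the replicate block. It ran from 19 (without young replicate 2) to 412 (without old replicate 1) with a library left out, and was 57 without young replicate 1 and 96 without young replicate 5. Scaling by library size alone called 181 higher and 44 lower genes and moved the median log2 fold change of expressed genes to 0.13, against -0.04. Of the listed genes, 2 were called, against 11 with DESeq2, 1 with either filter, limma-voom, bias-adjusted deviances or the replicate block, and 1 to 6 with a library left out. Signs of members far from the threshold turned. *snai1a* had log2 fold changes of 0.11 with library size alone, 0.00038 with limma-voom and 0.29 with the replicate block, and *twist1a* of 0.065, 0.0084 and 0.054 in the same settings. *zeb1b* had 0.15 with library size alone and *zeb2b* -0.052 with the replicate block. With a library left out, *snai1a* ran from -0.29 to 0.28, *twist1a* from -0.42 to 0.23, *twist1b* from -0.23 to 0.59, *zeb1b* from -0.18 to 0.14 and *zeb2b* from 0.069 to 1.55. The cause of these changes was not tested. Replicate numbers 1 and 5 occur at both ages. The main fit did not treat same-numbered libraries as pairs. Their deviations from the group means, read after that fit, correlated with -0.05 and 0.04 across 13262 genes.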
